A study of Mus musculus with 6 samples.

Results

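The genes described here are 10 genes of the extracellular matrix and of the metalloproteinases that cut it: Sparc, Bgn, Ecm1, Col27a1, Fn1 and Vcan for matrix proteins, and Mmp8, Mmp9, Mmp14 and Adam17 for proteinases. They were chosen by name, with earlier results of these data known, and each was found in 1 row of the Cufflinks table of 35237 genes and in 1 row of the ALEXA-Seq table of 36536 entries. The 2 cell populations were bone marrow monocytes (BMDM), sorted as CD11b+ CD45high CD115+ Ly6G- cells, and microglia (BSM), sorted as CD11b+ CD45low CD115low Ly6G- cells from brain tissue that the series' design text gives as brainstem. Both came from untreated C57BL/6 mice at 6 weeks of age, with no transgene or other allele named, and each library was made from the pooled cells of a set of mice. The labels gave 3 biological replicates of each population, of which replicate 1 was male and replicates 2 and 3 were female in both. In such pools, a smaller share of cells that express a gene and less RNA of that gene in every cell cannot be told apart.

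The extracellular matrix is a meshwork of collagens, glycoproteins and proteoglycans that cells secrete and then hold on to through integrins and other receptors. Matrix metalloproteinases (MMPs) cut these proteins outside the cell and need a zinc ion to do so, and members of the related ADAM family, such as ADAM17, use the same kind of site to release the outer parts of membrane proteins. Monocytes leave the blood through the vessel wall and its basement membrane, whereas microglia reside within brain tissue, whose matrix is poor in fibrillar collagen and rich in proteoglycans.

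The bases that encode the zinc-binding site are shown for the 4 proteinases because they are the part that the family shares. Each site lies within 1 coding exon of the longest GENCODE M21 coding sequence, on build GRCm38, and is printed in the direction of the gene with the codons of the 3 zinc-binding histidines in capitals.
Mmp8 exon 5, chr9:7563086-7563118, plus strand: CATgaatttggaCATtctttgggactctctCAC
Mmp9 exon 8, chr2:164951133-164951165, plus strand: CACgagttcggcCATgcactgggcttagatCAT
Mmp14 exon 5, chr14:54437627-54437659, plus strand: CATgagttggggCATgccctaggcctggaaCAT
Adam17 exon 12, chr12:21336732-21336764, minus strand: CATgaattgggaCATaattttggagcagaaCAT
Over these 33 bases, Mmp9 and Mmp14 shared 25 bases, and Mmp8 shared 20 with each of Mmp9 and Mmp14. Adam17 shared 22 with each of Mmp8 and Mmp14, and 20 with Mmp9. Of the 11 residues encoded, Mmp9 had 9 in common with Mmp8 and 9 with Mmp14, and Mmp8 and Mmp14 had 8. Adam17 had 8 in common with Mmp14 and 6 with each of Mmp8 and Mmp9. The sites were found by the pattern His-Glu-X-X-His-X-X-Gly-X-X-His, in which X is any residue. Its named residues are therefore the same in every pair by construction and are included in these counts.

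Promoters are shown for 4 of the genes that differed between BMDM and BSM. They came from RefSeq on build GRCm38.p6 and run from 250 bases before the start of the gene to 50 bases after it, in the direction of the gene. Promoters were matched for 8 of the 10 genes, and those of Fn1 and Mmp9 were not matched. Capitals mark 4 short motifs searched on both strands, namely GAGGAA (the core bound by PU.1, a factor of myeloid cells), TTGCNNAA (C/EBP), TGANTCA (AP-1) and TATAAA (the TATA box).
Sparc promoter, chr11:55420031-55420330, minus strand: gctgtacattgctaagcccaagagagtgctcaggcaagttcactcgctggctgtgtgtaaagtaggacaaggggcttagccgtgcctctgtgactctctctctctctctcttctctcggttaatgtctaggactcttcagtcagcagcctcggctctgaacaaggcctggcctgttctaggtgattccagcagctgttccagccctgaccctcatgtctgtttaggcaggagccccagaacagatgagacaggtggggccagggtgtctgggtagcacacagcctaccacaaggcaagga
Col27a1 promoter, chr4:63215162-63215461, plus strand: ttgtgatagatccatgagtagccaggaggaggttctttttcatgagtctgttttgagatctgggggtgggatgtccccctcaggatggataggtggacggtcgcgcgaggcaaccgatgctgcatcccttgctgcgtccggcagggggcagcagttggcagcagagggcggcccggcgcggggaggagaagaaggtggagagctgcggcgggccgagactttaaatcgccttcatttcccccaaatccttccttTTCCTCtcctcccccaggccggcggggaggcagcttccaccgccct
Vcan promoter, chr13:89742463-89742762, minus strand: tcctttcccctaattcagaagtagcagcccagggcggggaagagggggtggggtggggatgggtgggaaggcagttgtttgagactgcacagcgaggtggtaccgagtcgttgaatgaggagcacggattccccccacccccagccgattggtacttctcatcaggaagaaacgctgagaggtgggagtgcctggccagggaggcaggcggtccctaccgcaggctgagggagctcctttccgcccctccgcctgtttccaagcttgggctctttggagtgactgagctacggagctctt
Mmp8 promoter, chr9:7558179-7558478, plus strand: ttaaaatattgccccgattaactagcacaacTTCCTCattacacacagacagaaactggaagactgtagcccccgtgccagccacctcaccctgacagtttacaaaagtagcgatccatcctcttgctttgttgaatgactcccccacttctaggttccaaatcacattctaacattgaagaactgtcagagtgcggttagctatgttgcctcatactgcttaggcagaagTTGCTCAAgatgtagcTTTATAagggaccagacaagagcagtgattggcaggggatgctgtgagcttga
Of all 32851 promoters of this length, 28.3% held GAGGAA, 10.8% TTGCNNAA, 7.81% TGANTCA and 13.6% TATAAA. The Mmp8 promoter held GAGGAA on the other strand 219 bases before the start, TTGCNNAA 19 bases before it, and TATAAA on the other strand across the start, with no overlap between them. The Col27a1 promoter held GAGGAA alone, on the other strand just after the start. None of the 4 motifs was in the Sparc or Vcan window. The GC content of the windows was 46.0% for Mmp8, 55.3% for Sparc, 61.0% for Vcan and 61.7% for Col27a1, against a median of 52.7% over all promoters.

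Expression is given as FPKM, in which fragments are scaled by the length of the gene's exons and by the mapped reads of the library. Levels can thus be set beside each other between the genes of a library. This scaling did not make the sums of the 2 populations alike, so differences between them also depend on how the libraries are scaled. For tests, log2(FPKM + 1) was compared with limma for 6364 genes, those that reached 3 FPKM in 1 library or more, and a gene was called at a Benjamini-Hochberg adjusted p-value under 0.05. Fold changes on this scale understate the change of genes with low values. Ratios of FPKM between the populations, given below for Sparc, Col27a1, Fn1, Vcan and Mmp8, divide by values under 1 FPKM. The number of reads behind those values is unknown, so the size of such ratios is uncertain. The FPKM of all genes summed to between 163198.7 and 194184.2 in BMDM and between 68287.8 and 75021.4 in BSM, and the median log2 fold change of the genes tested was 0.81 towards BMDM. Between libraries, log2(FPKM + 1) of the tested genes gave a Pearson correlation of 0.971 between BMDM replicates 1 and 3 but 0.902 and 0.926 with BMDM replicate 2, and of 0.974 between BSM replicates 2 and 3 but 0.799 and 0.795 with BSM replicate 1. In the study's own record of the sorted RNA, BSM replicate 1 had by far the lowest RNA integrity, well apart from all other libraries. It also had the lowest concentration, and BMDM replicate 2 had the fewest cells. The part of RNA quality and input in the results was not tested. The microglia markers Tmem119, P2ry12, Siglech, Cx3cr1 and Gpr34 were each called higher in BSM. Of the 6 monocyte markers, Ccr2, Ly6c2, Lyz2 and F13a1 were called higher in BMDM, whereas Cd14 and Csf1r, which encodes the CD115 of the sort, were called higher in BSM.

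Monocytes and microglia expressed different matrix genes at high levels (see the plot of the genes by library). Fn1, Vcan and Mmp8 were higher in BMDM, while Sparc and Col27a1 were higher in BSM. Adam17 was expressed in both populations, and Ecm1, Bgn, Mmp9 and Mmp14 remained under an FPKM of 1 in all 6 libraries. Of the 10 genes, 6 passed the minimum of 3 FPKM and were tested. Of these, 3 were called higher in BMDM, where 45.3% of all genes tested were, and 2 were called higher in BSM, where 9.22% of all genes were. A member that passed the minimum through 1 population alone had to differ, so these shares say little about the group as a whole. In the ALEXA-Seq table, the same 6 genes were tested and the same 5 were called in the same directions, against 37.1% of all genes called higher in BMDM and 10.9% called higher in BSM. The ALEXA-Seq values came from the same reads and are not independent of the FPKM.

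**Figure D1:**
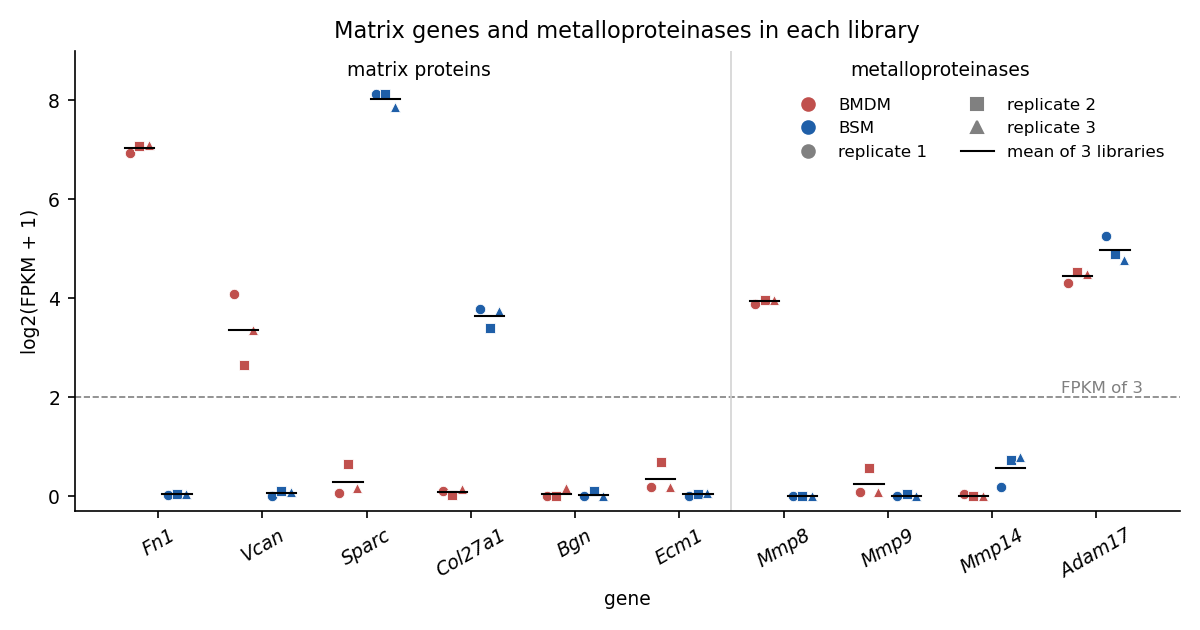
Expression of each gene, as log2(FPKM + 1), in the 3 BMDM (red) and 3 BSM (blue) libraries, with marker shapes for replicates 1 to 3, a black bar for the mean and a dashed line at an FPKM of 3. Fn1, Vcan and Mmp8 lie above the line only in BMDM, Sparc and Col27a1 only in BSM, and Adam17 in all 6 libraries.

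Among the matrix proteins, Sparc was the one expressed most in microglia. Sparc encodes osteonectin, a secreted glycoprotein that binds collagen and calcium and modulates how cells adhere to matrix (mm9 chr11:55208002-55233582, minus strand). Its FPKM was 279, 277 and 230 in BSM replicates 1 to 3, and 0.0518, 0.576 and 0.129 in BMDM replicates 1 to 3. The populations did not overlap, and the lowest BSM library was 399.9 times the highest BMDM library. Sparc had rank 20 by mean FPKM among the 18740 genes above 0 in BSM, and rank 10764 of 18846 in BMDM. The log2 fold change, BMDM minus BSM, was -7.73 (SE 0.25, limma adjusted p = 2.25e-06). The ratio of mean FPKM was 1039, and it was 2900 without BMDM replicate 2, the BMDM library with the highest Sparc value.

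Col27a1 was the other matrix gene of microglia. It encodes a fibrillar collagen known from cartilage and lies on chr4:62875038-62996025 of mm9 (plus strand). Its FPKM was 12.7, 9.54 and 12.4 in BSM and 0.0819, 0.0154 and 0.105 in BMDM. All 3 BSM libraries were above all BMDM libraries, with a log2 fold change of -3.55 (SE 0.24, limma adjusted p = 2.38e-05). The ratio of mean FPKM was 171, and it lay between 124 and 238 when a BMDM library was left out.

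Markers of fibroblasts, pericytes and endothelial cells were low in BSM beside Sparc and Col27a1, whereas the astrocyte list came near the level of Col27a1. The summed FPKM of 10 fibroblast and pericyte markers was between 0.0549 and 0.110 in BMDM and between 0.0399 and 1.38 in BSM, where 4 of the 10 were listed at 0 in all BSM libraries, Dcn, Lum, Pdgfra and Cspg4 among them. The highest sum, in BSM replicate 1, came from Cxcl12 alone, at 1.38. Endothelial markers summed to between 1.11 and 1.64 in BMDM and between 0.175 and 1.00 in BSM. Astrocyte markers summed to between 0.259 and 0.397 in BMDM and between 5.44 and 9.54 in BSM. Of these, Slc1a3, a glutamate transporter, gave 9.51, 5.18 and 6.71 in BSM, while Gfap was listed at 0 in all 6 libraries. The part of such cells in the BSM values was not tested. The sums of neuronal markers reached 0.348 in BSM and 0.0969 in BMDM, and 5 markers of border-associated macrophages summed to between 0.544 and 4.17 in BSM and between 1.38 and 2.58 in BMDM. Markers of oligodendrocytes summed to between 7.07 and 12.8 in BMDM and between 1.86 and 2.21 in BSM, mostly through Mbp.

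In monocytes, Fn1 was the leading matrix gene. It encodes fibronectin, a large glycoprotein that links integrins to collagen and fibrin (mm9 chr1:71632094-71699746, minus strand). Its FPKM was 121, 134 and 135 in BMDM and 0.0263, 0.0296 and 0.0298 in BSM. The BMDM libraries lay close to each other, with a coefficient of variation of 5.92%, and every one was at least 4062 times the highest BSM library. Fn1 had rank 86 by mean FPKM in BMDM and rank 13780 in BSM. The log2 fold change was 6.99 (SE 0.21, limma adjusted p = 2.25e-06), and the ratio of mean FPKM was 4551. In GENCODE M21, Fn1 overlaps the antisense gene Apol7d, which was at 0.332, 1.01 and 0.899 FPKM in BMDM and listed at 0 in BSM. The counting was not stated to use strand, so reads from these 2 genes cannot be told apart.

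Vcan was likewise a gene of monocytes. It encodes versican, a large chondroitin sulphate proteoglycan that binds hyaluronan (mm9 chr13:89794915-89882117, minus strand). Its FPKM was 16.1, 5.33 and 9.25 in BMDM, and 0, 0.0761 and 0.0581 in BSM. BMDM replicate 1 was highest and replicate 2 lowest, and their coefficient of variation of 53.2% was the largest of the 4 genes above 3 FPKM in BMDM. The populations did not overlap, with a log2 fold change of 3.31 (SE 0.37, limma adjusted p = 0.000276). The ratio of mean FPKM was 228, and it was 352 without BSM replicate 2 and 152 without BSM replicate 1.

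Bgn and Ecm1, the remaining matrix genes, were too low to be tested. Bgn encodes biglycan, a small leucine-rich proteoglycan (mm9 chrX:70728941-70741272, plus strand), and was listed above 0 in only 2 libraries, with 0.130 in BMDM replicate 3 and 0.0806 in BSM replicate 2. The 2 populations overlapped, and an exact two-sided permutation test gave p = 1.0. Ecm1 encodes a secreted glycoprotein of skin and other tissues (mm9 chr3:95538070-95543492, minus strand). Its FPKM was 0.145, 0.616 and 0.149 in BMDM, and 0, 0.0343 and 0.0531 in BSM. The populations did not overlap, but with no minimum on FPKM the log2 fold change of 0.32 (SE 0.14) was not called (limma adjusted p = 0.191).

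Among the proteinases, Mmp8 was the only MMP tested. It encodes the collagenase of neutrophil granules, which cuts fibrillar collagen (mm9 chr9:7558456-7568486, plus strand). Its FPKM was 13.9, 14.7 and 14.5 in BMDM. BSM replicates 1 and 2 were listed at 0 and replicate 3 at 0.00876. The coefficient of variation was 3.08% between the BMDM libraries, the smallest of the 4 genes above 3 FPKM there. The log2 fold change was 3.94 (SE 0.22, limma adjusted p = 8.75e-06). A ratio of mean FPKM of 4930 rests on the value of 1 BSM library.

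**Figure D2:**
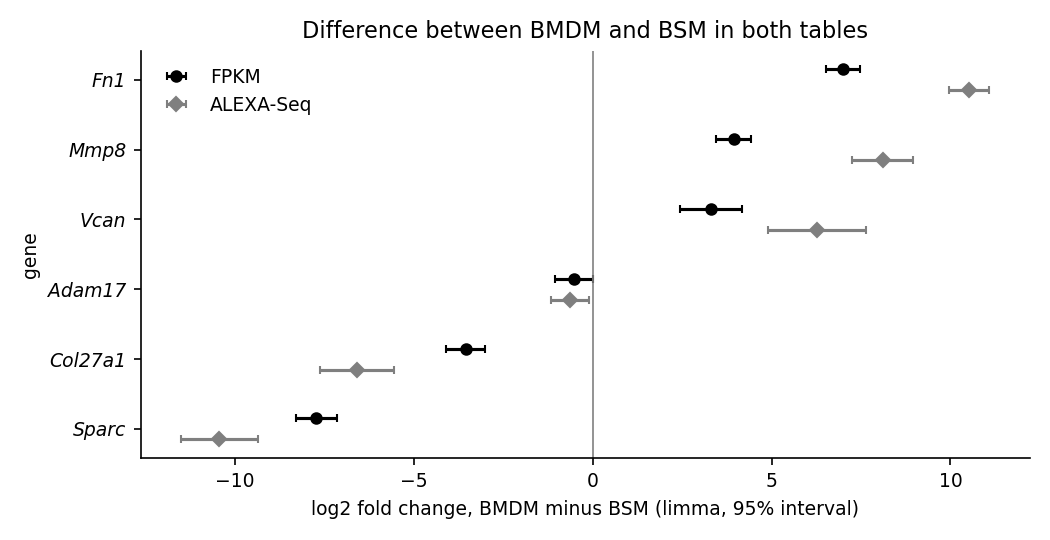
Log2 fold change, BMDM minus BSM, of the 6 tested genes from limma on log2(FPKM + 1) (black circles) and on log2(ALEXA-Seq value + 1) (grey diamonds), with bars for the 95% interval. The ALEXA-Seq values are larger numbers, so that the added 1 shrinks their fold changes less, and the interval of Adam17 crosses 0 in FPKM, from -1.07 to 0.00347.

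Mmp9 and Mmp14 were low in both populations. Mmp9 encodes gelatinase B, which cuts denatured collagen and basement membrane collagen (mm9 chr2:164766280-164781350, plus strand). Its FPKM was 0.0638, 0.497 and 0.0615 in BMDM, and 0, 0.0292 and 0.0112 in BSM. All BMDM libraries were above all BSM libraries, and BMDM replicate 2 was far above the other two. With no minimum, the log2 fold change of 0.23 was not called (limma adjusted p = 0.326). Mmp14 encodes a membrane-anchored MMP that also activates MMP2 (mm9 chr14:55050440-55060087, plus strand), and it had the opposite order. Its FPKM was 0.149, 0.657 and 0.728 in BSM, while BMDM replicate 1 was at 0.0422 and replicates 2 and 3 were listed at 0. With no minimum, the log2 fold change of -0.55 was not called in FPKM (limma adjusted p = 0.0750), whereas with every ALEXA-Seq entry above 0 it was -3.17 and was called (limma adjusted p = 0.0317). With no minimum on FPKM, 14.9% of all genes were called with BMDM higher and 3.36% with BSM higher. Of the 22980 ALEXA-Seq entries above 0, 2406 were called with BMDM higher and 879 with BSM higher.

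Adam17 was expressed in both populations, and the test did not separate them. It encodes the sheddase that releases TNF and many receptors from the cell surface (mm9 chr12:21329370-21379493, minus strand). Its FPKM was 18.9, 22.2 and 21.4 in BMDM, and 37.4, 28.7 and 26.2 in BSM. The lowest BSM library was 1.18 times the highest BMDM library, so the populations did not overlap. The ratio of mean FPKM was 1.48, with BSM higher. The log2 fold change of -0.53 (SE 0.23, 95% interval from -1.07 to 0.00347) was not called (limma adjusted p = 0.0834), and in ALEXA-Seq it was -0.64 (limma adjusted p = 0.0511). BSM replicate 1 was the highest library, and without it the log2 fold change was -0.39 (limma adjusted p = 0.0714). By the labels' sex, the difference was -0.95 on the log2 scale between the 1 male library of each population, BSM replicate 1 being one of them, and -0.32 between the means of the 2 female libraries of each. The study's Results text gives male mice, whereas its record of the sorted RNA lists the same sex for each set as the labels. BSM replicate 1 also had the lowest RNA integrity in that record. Sex, RNA quality and that library cannot be told apart. In GENCODE M21, Adam17 overlaps Iah1 on the other strand, whose FPKM was 0.600 at most.

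The result for Adam17 depended on how the libraries were scaled (see the plot of scalings). The median of all genes tested moved from 0.81 as deposited to 0.27 with upper quartile scaling, 0.02 with quantile normalization and -0.22 with every library set to the same sum of FPKM. Adam17 moved with it, to -1.18, -1.31 and -1.80, and was called higher in BSM in each case (limma adjusted p = 0.0127, 0.00215 and 0.000726). Relative to that median, Adam17 was at -1.34 as deposited, and at -1.44, -1.33 and -1.57 under these scalings in the same order. Quantile normalization placed 21.7% of all tested genes above the threshold with BMDM higher and 19.3% with BSM higher, a split that was 45.3% against 9.22% as deposited. Fn1, Vcan and Mmp8 remained called higher in BMDM, and Sparc and Col27a1 higher in BSM, under each of the 15 alternatives for FPKM and the 11 for ALEXA-Seq.

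**Figure D3:**
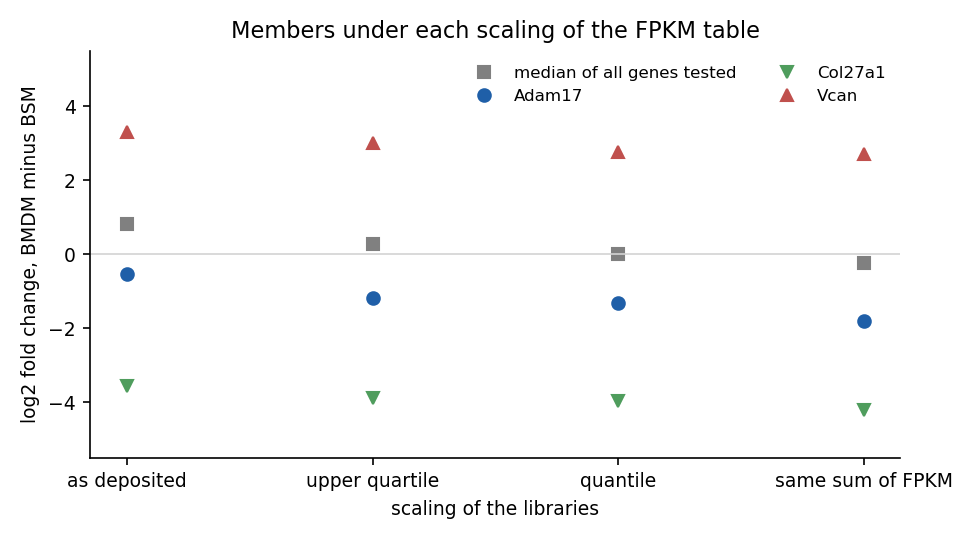
Log2 fold change, BMDM minus BSM, of Adam17, Col27a1 and Vcan and the median of all genes tested (grey squares) with the FPKM as deposited and after 3 ways of scaling the libraries. The median falls from 0.81 to -0.22, and Adam17 falls from -0.53 to -1.80, while Vcan stays above 0 and Col27a1 below it.

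By the order of mean FPKM, BMDM had Fn1 first, then Adam17, Mmp8 and Vcan. Adam17 and Mmp8 did not overlap between BMDM libraries, whereas Vcan in BMDM replicate 1 was above every Mmp8 value. In the ALEXA-Seq table, whose scaling by length is not stated, the order of these 2 genes was turned round, with Mmp8 at 283, 310 and 279 and Adam17 at 184, 224 and 216 in BMDM. In BSM the order was Sparc, Adam17 and Col27a1, with no overlap between neighbours, followed by Mmp14 below 1 FPKM. Over all 10 genes, 9 had no overlap between the populations, 5 with BMDM higher and 4 with BSM higher. No share over all genes, those below the minimum included, is given here to set beside this count, so it says nothing particular to these genes. Of the 6 tested genes, 3 had no overlap with BMDM higher, as did 55.2% of all genes tested, and 3 with BSM higher, as did 11.6% of all genes tested. With 3 libraries against 3, the exact two-sided permutation test of a single gene reaches p = 0.1 at the smallest, which these 9 genes gave.

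For each tested gene, the genes with the most similar levels were found by the Euclidean distance of log2(FPKM + 1) over the 6 libraries. Those of Sparc were P2ry13 (distance 0.945) and P2ry12 (1.39), receptors for extracellular nucleotides, and P2ry13 had 227, 222 and 176.5 FPKM in BSM. Those of Col27a1 were Jam2 (0.390), a junctional adhesion molecule, and Tspan7 (0.451), a tetraspanin. Fn1 was nearest to Ahnak (0.317), a giant scaffold protein, with 133, 135 and 144 FPKM in BMDM. Mmp8 was nearest to 1810033B17Rik (0.129) and Pstpip2 (0.296), an adaptor of the actin cytoskeleton. Adam17 was nearest to Evi2a (0.320) and Cnot2 (0.544), a subunit of the CCR4-NOT complex, and Evi2a likewise was highest in BSM replicate 1, with 39.5 FPKM. Those of Vcan were 2 entries without a symbol, at distances of 0.476 and 0.708.

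BMDM replicate 2 differed from the other BMDM libraries in markers of granulocytes and their precursors, although Ly6G was part of the sort. The summed FPKM of 12 such markers was 57.3, 377 and 97.2 in BMDM replicates 1 to 3, and 0.116 or less in BSM, where 8 of the 12 were listed at 0 in all libraries. Mpo, myeloperoxidase, was at 32.7, 181 and 67.1 FPKM in BMDM, and Ngp, a neutrophil granule protein, at 2.44, 77.1 and 3.44. Erythroid markers were also highest in replicate 2, where they summed to 39.5, against 6.84 and 7.23. Markers of megakaryocytes and platelets summed to 0.701, 0.929 and 6.62 in BMDM, with replicate 3 highest through Ppbp. Mmp9, Ecm1 and Sparc were each highest in BMDM replicate 2, whereas Vcan was lowest there. The part of other cells in these values was not tested. Mmp8 had the same order of BMDM libraries as the summed granulocyte markers, over a much narrower range, and its log2 fold change was between 3.92 and 3.96 whichever library was left out.

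**Figure D4:**
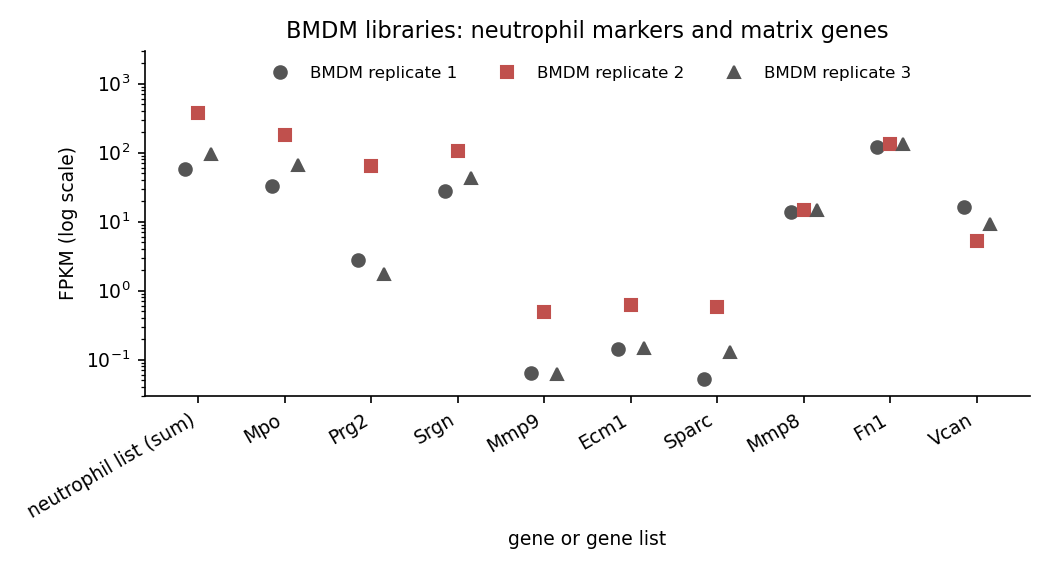
FPKM in the 3 BMDM libraries, on a log axis, of the summed granulocyte markers, of Mpo, Prg2 and Srgn, and of 6 matrix and proteinase genes, with replicate 2 in red. The summed markers reach 377 in replicate 2 against 57.3 and 97.2, and Mmp9, Ecm1 and Sparc are highest there, while Mmp8 stays between 13.9 and 14.7.

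Few other genes of the matrix reached 3 FPKM (see the bars of calls by list). Beside the counts of each list stand 45.3% of all genes tested called higher in BMDM and 9.22% in BSM. With quantile normalization these shares were 21.7% and 19.3%. The lists include the genes described above, and a gene that passed the minimum through 1 population alone had to differ. Nothing particular to a list was tested. Of 40 collagens, only Col27a1 did. Of 46 matrix glycoproteins, 4 were tested, of which 3 were called higher in BMDM and 1, Sparc, higher in BSM. Besides Fn1 these were Emilin2, a glycoprotein of elastic fibres, with 14.3, 20.6 and 15.8 FPKM in BMDM and up to 0.132 in BSM, and Tgfbi, an adhesion protein induced by TGF-beta, with 21.9, 30.7 and 27.8 against 0.251, 1.09 and 1.11. Their log2 fold changes were 4.05 and 3.97 (limma adjusted p = 1.22e-05 and 3.38e-05).

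Of 21 proteoglycans, 3 were tested and all 3 were called higher in BMDM, though Vcan alone was called with quantile normalization. Vcan and Prg2 passed the minimum through BMDM alone, so they could be called only in that direction. Srgn, serglycin of secretory granules, had 28.1, 104.75 and 42.3 FPKM in BMDM and 1.14, 13.8 and 10.9 in BSM. Its log2 fold change of 2.82 (limma adjusted p = 0.0165) was 2.30 and no longer called without BMDM replicate 2 (adjusted p = 0.0773). Prg2, the major basic protein of eosinophil granules, had 2.82, 64.5 and 1.73 FPKM in BMDM and was listed at 0 in BSM. It was called with all libraries and without BMDM replicate 2 (limma adjusted p = 0.0375 and 0.00214), but not in 8 of the 15 alternatives, such as without any 1 of the BSM libraries.

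Of 22 MMPs, Mmp8 alone was tested. Of 31 ADAM and ADAMTS proteases, 4 were tested, with 2 called higher in BSM and none in BMDM. With quantile normalization, all 4 were called higher in BSM. Adamts1, which cuts versican and other proteoglycans, had 27.3, 35.7 and 25.7 FPKM in BSM and was listed at 0 in all BMDM libraries (limma adjusted p = 4.62e-06). Adamts16 had 3.19, 3.29 and 3.47 FPKM in BSM and 0.00612 or less in BMDM, with a log2 fold change of -2.11 (limma adjusted p = 0.000523). The versican gene and this versican-cutting protease were thus high in opposite populations.

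Of 14 genes listed as inhibitors or activators of metalloproteinases, 4 were tested, with 1 called higher in BMDM and 3 in BSM. Plaur, the receptor of urokinase, was higher in BMDM with 2.04, 4.06 and 2.27 FPKM against 0, 0.130 and 0.161 (log2 fold change 1.75, limma adjusted p = 0.00290). Its ligand gene Plau was higher in BSM, with 14.5, 9.50 and 6.89 FPKM against 2.09, 1.75 and 1.58 (log2 fold change -1.96, limma adjusted p = 0.00117). Timp2, an inhibitor of MMPs, had 6.92, 7.57 and 9.79 FPKM in BSM and 1.67, 0.404 and 0.530 in BMDM (log2 fold change -2.33, limma adjusted p = 0.000676). Basp1, also called higher in BSM with 10.9, 40.6 and 31.9 FPKM against 0.364 or less, is known as a membrane-bound protein of neurites and not as a regulator of proteases. Rhbdf2 and Frmd8, which help ADAM17 reach the cell surface, were below 3 FPKM in every library.

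**Figure D5:**
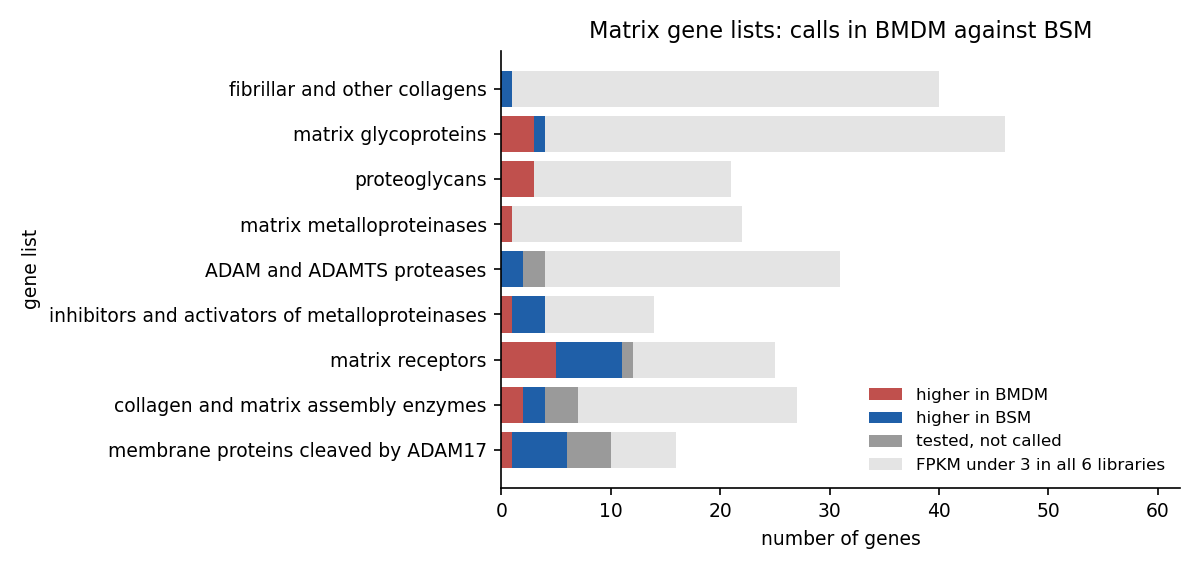
Number of genes in each of 9 lists that were called higher in BMDM (red), called higher in BSM (blue), tested but not called (dark grey) or below 3 FPKM in all 6 libraries (light grey), with the genes described here included. Matrix receptors had 12 tested genes, 5 called higher in BMDM and 6 in BSM, while 39 of 40 collagens were below the minimum. Of all genes tested, 45.3% were called higher in BMDM and 9.22% in BSM.

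Matrix receptors were expressed in both populations. Of 25 receptors, 12 were tested, with 5 called higher in BMDM and 6 in BSM, or 3 and 6 with quantile normalization. The tested receptor that was not called was Itgb1, the beta subunit shared by many matrix-binding integrins, with 31.8, 40.6 and 37.8 FPKM in BMDM and 10.4, 30.1 and 27.7 in BSM. In BMDM, Cd44, a receptor for hyaluronan, had 43.2, 39.0 and 43.3 FPKM against 0.269, 0.253 and 0.317 (log2 fold change 5.06, limma adjusted p = 2.91e-06). Itga4, a subunit of an integrin that binds fibronectin and VCAM1, had 46.6, 29.4 and 40.5 FPKM against 1.20, 0.248 and 0.394 (log2 fold change 4.65, limma adjusted p = 2.26e-05), and Itga1, a subunit of a collagen-binding integrin, was between 4.11 and 6.30 in BMDM and listed at 0 in BSM. In BSM, Lair1, an inhibitory receptor for collagen, had 54.7, 67.3 and 64.1 FPKM against 2.12, 4.58 and 3.82 (log2 fold change -3.84, limma adjusted p = 3.31e-05). The laminin-binding integrin subunit Itga6 was between 22.2 and 45.0 FPKM in BSM and between 1.31 and 3.03 in BMDM, and Itgb5, a partner of the alpha-v subunit, was between 11.4 and 14.9 in BSM and between 0.461 and 0.710 in BMDM (limma adjusted p = 0.000151 and 3.38e-05). Among subunits of integrins that bind fibronectin, Itga4 was thus higher in BMDM, whereas Itgav was called higher in BSM, with 33.5, 38.6 and 45.7 FPKM against 14.8, 7.30 and 9.89, and Itga5 was below the minimum. Itgb1, Itgav and Itga5 were named after their values were seen.

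Enzymes that assemble collagen and proteoglycans were mixed. Of 27 in the table, 7 were tested, with 2 called higher in BMDM and 2 in BSM, or 1 and 3 with quantile normalization. P4hb, a subunit of prolyl 4-hydroxylase and a general folding enzyme, was higher in BMDM (log2 fold change 1.88, limma adjusted p = 0.00439), as was Xylt1, which starts the sugar chains of proteoglycans (1.69, adjusted p = 0.0116). P4hb was not called with upper quartile or same-sum scaling, where its adjusted p reached 0.153, nor was Xylt1 with quantile normalization (0.86, adjusted p = 0.153). Plod1, a lysyl hydroxylase, was higher in BSM, with 12.5, 9.16 and 8.18 FPKM against 2.02, 3.23 and 1.65 (log2 fold change -1.74, limma adjusted p = 0.00154). P4ha1, the catalytic subunit of prolyl 4-hydroxylase, was called higher in BSM with all libraries (-1.33, limma adjusted p = 0.0360) but not in 6 of the 15 alternatives.

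The membrane proteins that ADAM17 is known to cleave included several genes of microglia. Of 16 in the list, 10 were tested, with 1 called higher in BMDM and 5 in BSM, beside 45.3% and 9.22% of all genes tested. The median log2 fold change of the 10 was -0.35, against 0.81 for all genes tested, and nothing particular to the list was tested. Mertk, a receptor for the uptake of dead cells, had 51.0, 70.4 and 71.5 FPKM in BSM and 0.0224, 0.228 and 0.212 in BMDM (log2 fold change -5.81, limma adjusted p = 2.93e-06). Csf1r, the receptor on which microglia depend, had 158, 131 and 102 FPKM in BSM and 19.1, 21.3 and 21.2 in BMDM (-2.58, adjusted p = 0.000102), and Trem2, a lipid receptor of microglia, was between 3.52 and 5.97 in BSM and between 0.244 and 0.568 in BMDM (-1.95, adjusted p = 0.000971). App, the amyloid precursor, was the gene called higher in BMDM (1.47, limma adjusted p = 0.00842), and it was not called with quantile normalization (adjusted p = 0.108).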

How the data were processed

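RNA-Seq libraries of FACS-sorted BMDM (n = 3) and BSM (n = 3) were compared. Groups, replicate numbers and sex came from the sample labels. RNA was amplified with the Ovation RNA-Seq method. The authors deposited gene-level FPKM, for which the submitters' processing notes name CASAVA 1.7.0, TopHat 1.3.1, Bowtie 0.12.7, Cufflinks 1.0.3 and mm9. The authors' methods mention removal of ribosomal reads before an FPKM minimum of 3. The authors also deposited an ALEXA-Seq expression signal on a linear scale, whose normalization is not given in the sources used here. Neither table holds reads per gene, so the depth behind a value is unknown. Starts in the files count from 0 and are printed from 1.

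Limma 3.58.1 in R 4.3.3 (mean-variance trend, Benjamini-Hochberg adjustment) was run on log2(value + 1) for 6364 genes in each table, those with FPKM of at least 3 in at least 1 library and the highest 6364 ALEXA-Seq entries. The step was tested on simulated data. Single genes were tested by exact permutation in scipy 1.17.1, and tables were handled with Python 3.11.15 and pandas 2.3.3. Matches of at least 100 bases at 95% identity to transcripts of other genes, found by blastn 2.17.0 in GENCODE M21, covered at most 7.0% of the longest transcript of any of the 10 genes.

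The 10 genes and the lists were chosen with earlier results of these data known. From each matrix list, up to 3 genes in each direction with the largest log2 fold change were named among those called without overlap, and for each tested gene the 2 nearest in level. From lists of other cells, the genes with the highest FPKM were named, and others there were named after their values were seen. Some genes are not reported here. Alternatives were other pseudocounts, minimums and scalings, moderation without a trend, library weights, a replicate block and leaving out each library.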

Additional observations from a re-analysis of the deposited data

How the results depend on the processing

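The calls of Fn1, Vcan, Mmp8, Sparc and Col27a1 and all their directions were the same under the 15 FPKM and 11 ALEXA-Seq alternatives. None of these 5 genes nor Adam17 changed direction. Adam17 was called higher in BSM under 4 of 15 FPKM alternatives, with log2 fold changes from -1.80 to -0.39 and adjusted p-values from 0.000726 to 0.181, and under 4 of 11 ALEXA-Seq alternatives. Among these, library quality weights (-0.41, adjusted p = 0.0231) were taken from an estimate that stopped before it converged. A pseudocount of 0.1 widened the FPKM log2 fold changes of the 5 called genes, to 9.98 for Fn1, 7.14 for Mmp8, 6.06 for Vcan, -6.15 for Col27a1 and -9.83 for Sparc.

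Over all genes, calls in FPKM higher in BMDM fell from 2883 to 1303 with upper quartile scaling, 1378 with quantile normalization and 973 with the same sum. They rose to 3822 with library weights, to 3194 without BSM replicate 1, and to 3585 of 9637 genes with a minimum of 1. Calls higher in BSM rose from 587 to 881 with library weights, 1227 with quantile normalization and 1582 with the same sum. In ALEXA-Seq, calls higher in BMDM went from 2359 to 1439 with quantile normalization and 845 with the same sum, and from 1452 to 3082 when a library was left out, and calls higher in BSM from 691 to 1349 and 1926 with these scalings. With the same sum, more genes were thus called higher in BSM than in BMDM in both tables, and the median log2 fold change in FPKM turned from 0.81 to -0.22. The other causes were not tested.

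Whether replicate numbers pair the samples cannot be decided from so few libraries, and by the labels equal numbers had equal sex. Deviations from the group means correlated by -0.019, -0.008 and 0.134 between samples of equal number in FPKM. In ALEXA-Seq these correlations were 0.015, 0.043 and 0.104. Between samples of unequal number they ranged from -0.113 to 0.068 in FPKM and from -0.076 to 0.022 in ALEXA-Seq. With the replicate block, 2905 genes were called higher in BMDM and 566 in BSM in FPKM, and 2251 and 634 in ALEXA-Seq. The number of genes without overlap was 9 in ALEXA-Seq, again with no share over all genes beside it. It was also 9 without any 1 library. Leaving out a library cannot make separated groups overlap, so only Bgn could have changed that count. These alternatives were chosen after seeing the data. Reads per gene were not used, so values below 1 FPKM have no counting interval.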
